A study of Mus musculus with 24 samples.

Results

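The comparison set 6 small RNA libraries from trained kinase dead mice against 6 from trained wild type mice, chosen by the genotype and training labels and described over every expressed miRNA. These are 12 of the 24 libraries of a study of miRNAs in the subcutaneous fat of female mice. The other 12 come from sedentary mice of the same genotypes, 6 of each, and serve here only to show the same genotype difference in mice labelled sedentary. Training of both genotypes was a treadmill run for 1 hour on 5 days a week over 6.5 weeks at 16 m/min, together with a running wheel. The labels do not say whether sedentary mice had a wheel as well. All mice ate chow and were kept at 22 °C. Kinase dead means that an enzyme which transfers phosphate is present in a form without catalytic activity. The labels name neither the kinase nor the promoter or cell types in which the inactive form is made, and they do not say which subcutaneous depot was taken. Whether each library is from a different animal is not stated, and the p-values cover only the variation among the libraries at hand, which may be technical. Nothing in the files reads the targeted gene, so the genotype labels could not be checked against the counts.

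A miRNA is a short RNA cut from a hairpin precursor, and either arm of the hairpin, 5p or 3p, can become the mature strand. Pairing of its seed, the bases near its 5′ end, with messenger RNAs leads to their repression, so miRNAs with the same seed share many targets. Fat tissue makes miRNAs of its own and also holds those of vessels, blood cells, nerve, nearby skeletal muscle and, in female mice, mammary epithelium. Blood plasma carries others from the liver.

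The mature sequences of miRNAs that the comparison turns on are printed first, as given by RefSeq for GRCm38.p6, from the 5′ end with the seed (bases 2 to 8) in capitals. The first pair are muscle miRNAs that lie close together on chromosome 1, and miR-206 shares its seed family with miR-1.
miR-206-3p: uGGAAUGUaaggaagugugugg
miR-133b-3p: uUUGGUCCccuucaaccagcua

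Members of the let-7 family share the seed GAGGUAG, and the abundant ones printed here were mostly higher in trained kinase dead libraries without passing a test.
let-7i-5p: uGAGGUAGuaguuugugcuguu
let-7g-5p: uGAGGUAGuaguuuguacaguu
let-7f-5p: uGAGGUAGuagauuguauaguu
let-7a-5p: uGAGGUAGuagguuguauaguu

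The 19 bases of miR-101c are contained in the 21 bases of the far more abundant miR-101a-3p, and the pair is shown because their values differed in direction.
miR-101a-3p: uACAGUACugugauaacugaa
miR-101c: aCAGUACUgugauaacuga

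Other single miRNAs described further on are miR-34b-5p and miR-224-5p, which were among those with the smallest p, miR-542-5p, which alone did not overlap between the groups, and both arms of miR-203.
miR-34b-5p: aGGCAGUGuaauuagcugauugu
miR-224-5p: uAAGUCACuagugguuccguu
miR-542-5p: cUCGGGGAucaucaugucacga
miR-203-3p: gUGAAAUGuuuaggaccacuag
miR-203-5p: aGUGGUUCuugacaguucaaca

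The most abundant miRNAs bring the baseline of the tissue, and the sequences of a few of them are given for orientation.
miR-21a-5p: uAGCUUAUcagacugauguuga
miR-148a-3p: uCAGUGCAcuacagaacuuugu
miR-30a-5p: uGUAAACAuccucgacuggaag

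Library totals were 4.63 to 13.2 M reads in trained wild type (median 10.8) and 2.29 to 23.6 M in trained kinase dead (median 9.68), and log2 totals gave p = 0.734 in a two-sided exact permutation test (n = 6 each). At these depths 3 reads stand for 0.237 to 0.632 CPM (reads of a miRNA scaled to a common library size) in wild type and 0.118 to 1.39 CPM in kinase dead libraries, counting error only. Differences at lower levels were not detectable. The adipocyte markers miR-148a, miR-378a, miR-193b, miR-365, miR-196a, miR-455 and miR-335 were present in all 12 libraries, with miR-148a at 22950 to 42590 CPM and miR-378a at 10410 to 18980 CPM. Epithelial miRNAs were abundant as well, led by miR-200a at 7511 to 13200 CPM. In 4 trained libraries, wild type replicates 1 and 2 and kinase dead replicates 3 and 6, the lymphocyte miRNA miR-150-5p stood above 2000 CPM, at 3460 to 6954 CPM, against 551 to 781 CPM in the other 8. They are called lymphocyte-rich here. On principal component 1, which held 51.5% of the variance, these 4 lay between -18.53 and -11.58 and the other 8 between 5.3 and 10.35, so this split and not genotype was the main axis. Component 2, with 15.4%, set kinase dead replicate 2 apart.

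Over all miRNAs, no difference between trained kinase dead and trained wild type fat passed the threshold. Striated muscle miRNAs and the liver miRNA miR-122 stood lowest relative to wild type, and let-7 miRNAs were slightly higher. Of 654 features tested with edgeR's quasi-likelihood test and Benjamini-Hochberg adjustment, 0 were called at an adjusted p under 0.05 (0.0%), and the smallest adjusted p was 0.999. DESeq2 and limma-voom also called 0. Unadjusted, 6 features had a p under 0.05 (0.917%), all lower in kinase dead, where evenly spread p-values would give 32.7. DESeq2 had 11 and limma-voom 12. The 6 are 3 distinct RNAs: miR-122-5p, miR-1a-3p at both of its loci with the opposite-strand miR-1b-5p, and miR-133a-3p at both of its loci. Without a single library the count ran from 1 (without wild type replicate 5, wild type replicate 6 or kinase dead replicate 1) to 11 (without wild type replicate 1).

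**Figure D1:**
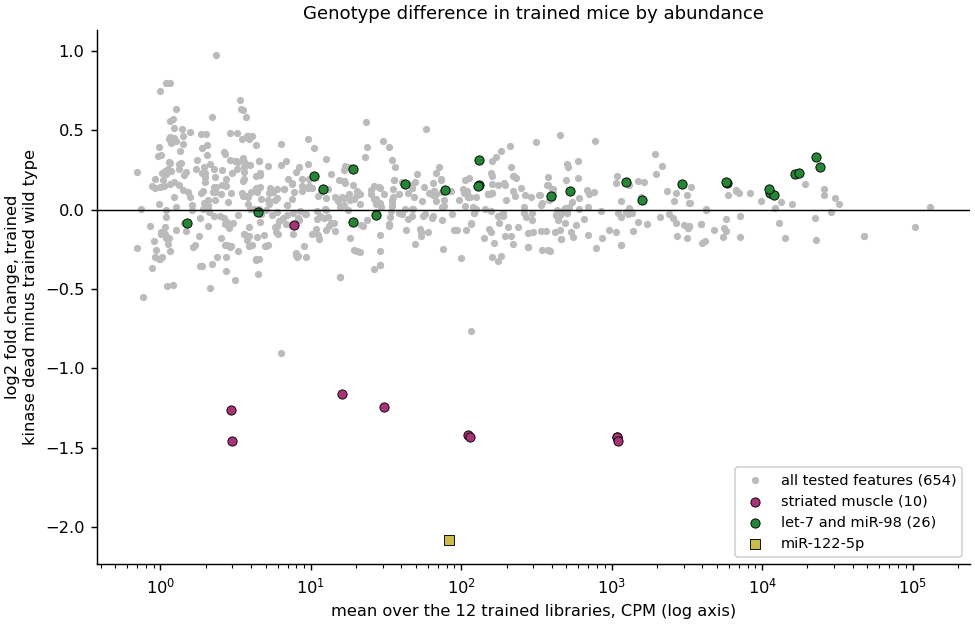
Each point is 1 of the 654 tested features, with its mean over the 12 trained libraries in CPM on a log axis and its log2 fold change, trained kinase dead minus trained wild type. Of the 10 striated muscle features 9 lie between -1.46 and -1.16 and miR-122-5p at -2.08, while 22 of 26 let-7 and miR-98 features lie above 0.

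The precision of the comparison can be stated in fold. For the 381 features with a mean of at least 10 CPM the 95% interval of the log2 fold change reached 0.407 to either side at the median, which is 1.33-fold. In 337 of the 381 the whole interval lay within 2-fold of equality, and in 224 within 1.5-fold. For the 93 features of at least 1000 CPM the median reach was 0.317, or 1.25-fold. Among all 654 features the log2 fold change was above 0 in 380 (58.1%) and below 0 in 274 (41.9%), with a median of 0.05.

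Striated muscle miRNAs were lower in trained kinase dead fat in 10 of 10 tested features, with a median log2 fold change of -1.43, against 0.05 over all features. None passed the adjusted test and 5 of 10 had an unadjusted p under 0.05, against 6 of 654 (0.917%) over all features. The 5 are miR-1a-3p at both loci with the opposite-strand miR-1b-5p, and miR-133a-3p at both loci. With copies summed, the edgeR unadjusted p was 0.0496 for miR-1a-3p and 0.0513 for miR-133a-3p. Both loci of miR-1a-3p and of miR-133a-3p share their reads between copies, so these 10 features are fewer independent measurements. miR-1a-3p, which dominates the miRNAs of skeletal and heart muscle, is made from hairpins on chromosomes 2 and 18, and locus 2 here is chr2:180389096-180389117 on the plus strand of GRCm38, intergenic on that strand. It stood at 463, 1613 and 2809 CPM (lowest, median and highest) in trained wild type and at 323, 519 and 1060 CPM in trained kinase dead. Wild type replicates 3, 5 and 6 were high, at 2645, 2292 and 2809 CPM, and every kinase dead library lay below the wild type median, but wild type replicates 1, 2 and 4 fell within the kinase dead range. How many of all 654 features had every kinase dead library on the same side of the wild type median was not counted. The fold was 2.74 lower (95% interval of the ratio 0.136 to 0.975), a log2 fold change of -1.46 (SE 0.69; edgeR unadjusted p = 0.0449, Benjamini-Hochberg adjusted p = 0.999). The two-sided exact permutation test gave p = 0.0649 (n = 6 each, adjusted p = 0.28 over the 31 named features). Adjusted p-values of the exact tests do not cover the choice of the named features, partly made by small p in the same libraries.

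miR-133a-3p, which is transcribed with miR-1a and represses the muscle regulator Srf, lies at chr2:180398437-180398458 (locus 2, plus strand), also intergenic. It stood at 57.3, 154 and 334 CPM in trained wild type and at 25.7, 57.4 and 115 CPM in trained kinase dead libraries. Again all 6 kinase dead libraries lay below the wild type median, with an overlap through wild type replicates 1, 2 and 4. On the log2 scale the difference was -1.43 (SE 0.68), with edgeR unadjusted p = 0.047 and exact permutation p = 0.0433 (n = 6 each, adjusted p = 0.28).

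The skeletal muscle pair miR-206-3p (chr1:20679055-20679076, plus strand) and miR-133b-3p (chr1:20682834-20682855, plus strand) showed the same order with wider intervals. miR-206-3p stood at 8.53, 35.7 and 99.3 CPM in trained wild type and at 2.23, 12.7 and 49.9 CPM in trained kinase dead. Kinase dead replicate 4, at 49.9 CPM, was far above the next of its group, at 19.9 CPM. The log2 fold change was -1.24 (SE 0.70, interval -2.69 to 0.20), and -1.89 without that library and -0.80 without wild type replicate 6. miR-133b-3p stood at 5.69, 19.9 and 47.1 CPM and at 3.05, 8.71 and 17.9 CPM, with a log2 fold change of -1.16 (SE 0.69). The scarce arm miR-133a-5p (locus 1) was at -1.46 (SE 0.73), from a mean of 4.48 ± 4.13 to 1.5 ± 0.98 CPM (SD, n = 6 each).

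Not every muscle marker followed. miR-499-5p, encoded in a slow myosin gene, had a mean of 8.02 ± 1.25 CPM in trained wild type and 7.40 ± 2.40 CPM in trained kinase dead (log2 fold change -0.10, SE 0.28). The heart and slow muscle miRNAs miR-208a and miR-208b were at 0 reads in 9 and 7 of the 12 trained libraries and passed no filter. Summed over the list, muscle miRNAs ranged from 1573 to 8777 CPM in trained wild type (median 5162) and from 1042 to 3479 CPM in trained kinase dead (median 1697), or 0.161 to 0.897% and 0.097 to 0.374% of reads. The sum adds miR-1a-3p locus 1 and the opposite-strand miR-1b-5p, both at a mean of 1083 CPM. The same reads can therefore enter more than once, and these sums and shares are not levels of distinct RNAs. In such bulk tissue, fewer cells of a type and less RNA per cell cannot be told apart. The part of muscle tissue taken with the fat in these differences was not tested.

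In sedentary libraries the muscle difference was smaller by value, though a test of that contrast did not separate the 2. There the same list had 2 features higher and 8 lower in kinase dead, with a median of -0.16 (over all features 52.3% were higher and 47.7% lower), and miR-1a-3p was at -0.09 (SE 0.67), from 1058 ± 1140 CPM in wild type to 998 ± 1334 CPM in kinase dead (SD, n = 6 each). The interaction of genotype and training for miR-1a-3p was -1.37 (SE 0.96, edgeR unadjusted p = 0.165, adjusted p = 1.0), so the genotype difference was not shown to depend on training. Within the trained libraries the lowest muscle values of wild type were those of the lymphocyte-rich replicates 1 and 2. Without all lymphocyte-rich libraries miR-1a-3p was at -1.67 (edgeR unadjusted p = 0.0334). With each trained library left out in turn the median of the list ran from -1.68 to -1.17.

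**Figure D2:**
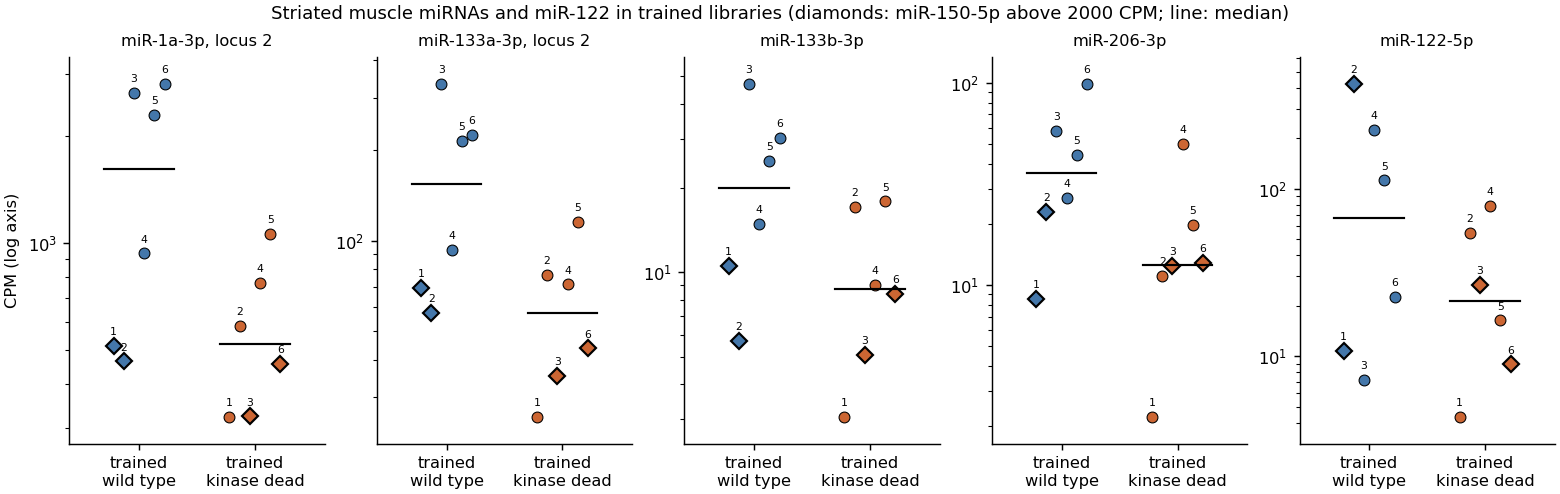
CPM on a log axis in each trained library for 4 muscle miRNAs and miR-122-5p, with the replicate number above each point, diamonds for lymphocyte-rich libraries and a line at the group median. Wild type replicates 3, 5 and 6 hold 2292 to 2809 CPM of miR-1a-3p and no kinase dead library exceeds 1060 CPM, while miR-122-5p is highest in wild type replicate 2, at 423 CPM.

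miR-122-5p, the dominant miRNA of hepatocytes and one carried in plasma, had the largest difference in size. It stood at 7.23, 67.3 and 423 CPM in trained wild type and at 4.35, 21.5 and 78.5 CPM in trained kinase dead. Wild type replicates 2, 4 and 5, at 423, 224 and 112 CPM, lay above every kinase dead library, and the other 3 wild type libraries lay within the kinase dead range. On the log2 scale the difference was -2.08 (SE 0.95, interval -4.04 to -0.12), with edgeR unadjusted p = 0.0386 and exact permutation p = 0.281 (n = 6 each, adjusted p = 0.422). It was -1.25 without wild type replicate 2, and -1.26 without the lymphocyte-rich libraries (edgeR unadjusted p = 0.218). The libraries high in miR-122-5p were not all high in muscle miRNAs. Wild type replicate 5 was high in both, but replicate 3, among the highest for miR-1a-3p, had the lowest miR-122-5p of its group, and replicate 2, the lowest for miR-1a-3p, the highest. The liver and gut list had 5 of 6 features lower and a median of -0.21, and its other members were closer to equality. miR-192-5p was at -0.06 (SE 0.12), miR-194-5p at -0.21 (SE 0.15) for locus 1, and miR-215-5p at 0.03 (SE 0.43). All 6 kinase dead libraries of miR-192-5p lay below the wild type median of 708 CPM, at 523 to 707 CPM, and its log2 fold change ran from -0.20 to -0.02 as single libraries were left out.

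The let-7 miRNAs, which curb proliferation and lower insulin sensitivity when overexpressed, were slightly higher in trained kinase dead fat. Of 26 tested let-7 and miR-98 features 22 had a log2 fold change above 0 (84.6%, against 58.1% over all features), with a median of 0.15 against 0.05, and 0 passed, adjusted or unadjusted. Since copies and arms come from shared precursors, and the family moves with the same libraries, this count is a description. The median was 0.075 without kinase dead replicate 1. let-7i-5p (chr10:122985698-122985719, minus strand, within an exon of the long noncoding gene D630033A02Rik) stood at 17130, 21000 and 22360 CPM in trained wild type and at 17440, 22400 and 39790 CPM in trained kinase dead. Kinase dead replicates 6, 1 and 2, at 39790, 31020 and 23750 CPM, lay above every wild type library and the other 3 lay among them. The log2 fold change was 0.33 (SE 0.17, interval -0.01 to 0.68; edgeR unadjusted p = 0.0563), and 0.16 without kinase dead replicate 6, 0.20 without kinase dead replicate 1 and 0.22 without wild type replicate 3. Without the lymphocyte-rich libraries it was 0.26 (edgeR unadjusted p = 0.125).

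let-7g-5p (chr9:106178846-106178867, plus strand, in an intron of Wdr82) had the same 3 kinase dead libraries on top, at 40690, 28420 and 28060 CPM, against at most 23650 CPM in wild type. Its log2 fold change was 0.27 (SE 0.16), and 0.10 without kinase dead replicate 6 and 0.16 without wild type replicate 3. let-7f-5p (locus 2, chrX:151912353-151912374, plus strand, in an intron of Huwe1) stood at 12590, 15570 and 19260 CPM in trained wild type and at 15760, 18560 and 24510 CPM in trained kinase dead, with all 6 kinase dead libraries above the wild type median and a log2 fold change of 0.23 (SE 0.13). This was 0.12 without wild type replicate 5, 0.14 without wild type replicate 3 or kinase dead replicate 6, and 0.15 without wild type replicate 1. The other arm of that hairpin, let-7f-2-3p, was at 0.31 (SE 0.17), and at 0.14 without kinase dead replicate 6 and 0.19 without kinase dead replicate 1. let-7a-5p was at 0.17 (SE 0.12) for locus 1, let-7b-5p at 0.09 (SE 0.12) and let-7c-5p at 0.10 (SE 0.14) for locus 1. Of the 10 distinct tested miRNAs whose RefSeq sequence holds the seed GAGGUAG 9 were above 0 and let-7k, at -0.03, was below.

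Trained wild type held the lowest mean of let-7i-5p among the 4 groups of the study. The means were 26600 ± 5322 CPM in sedentary wild type, 24220 ± 3522 CPM in sedentary kinase dead, 20260 ± 1945 CPM in trained wild type and 25520 ± 8389 CPM in trained kinase dead (SD, n = 6 each). From sedentary wild type through trained kinase dead to sedentary kinase dead, neighbouring means differed by less than their SDs. The step from sedentary kinase dead down to trained wild type was larger than either SD. Between the trained groups, the means differed by less than the trained kinase dead SD. Setting means beside SDs is not a test. In sedentary mice 9 of the 26 let-7 and miR-98 features were higher in kinase dead, with a median of -0.06. The interaction for let-7i-5p was 0.47 (SE 0.23; edgeR unadjusted p = 0.0575, adjusted p = 1.0).

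Several single miRNAs outside these groups came next by p, all higher in trained kinase dead libraries and none called. miR-30b-5p, a member of the abundant miR-30 family that favours adipocyte differentiation, stood at 1709, 1783 and 2028 CPM in trained wild type and at 1836, 1996 and 2704 CPM in trained kinase dead. All 6 kinase dead libraries lay above the wild type median, and 3 of them above every wild type library. On the log2 scale the difference was 0.23 (SE 0.11; edgeR unadjusted p = 0.0561) and the exact permutation p was 0.0476 (n = 6 each, adjusted p = 0.28). It was 0.14 on the log2 scale without kinase dead replicate 6, and 0.16 without the lymphocyte-rich libraries (edgeR unadjusted p = 0.215). The miR-30 list as a whole had a median of 0.01 over 12 features, and miR-30a-5p, its most abundant member, was at 0.07 (SE 0.17).

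miR-224-5p (chrX:72261085-72261105, minus strand, in an intron of Gabre) stood at 110, 162 and 194 CPM in trained wild type and at 143, 202 and 269 CPM in trained kinase dead. Of the 6 kinase dead libraries 4 lay above every wild type library, and the log2 fold change was 0.37 (SE 0.19; edgeR unadjusted p = 0.0646). miR-34b-5p (chr9:51103610-51103632, minus strand, intergenic), of the p53-responsive miR-34 family, stood at 21.7, 25.1 and 28.7 CPM and at 22.2, 34.2 and 53.7 CPM, with kinase dead replicates 1, 2, 5 and 6 above every wild type library. Its log2 fold change was 0.43 (SE 0.23; edgeR unadjusted p = 0.0724). Without kinase dead replicate 2 it was 0.27, and that of miR-224-5p was 0.25 without wild type replicate 5. Without the lymphocyte-rich libraries miR-34b-5p was at 0.56 (edgeR unadjusted p = 0.0614) and miR-224-5p at 0.40 (edgeR unadjusted p = 0.126). Among tested miRNAs whose RefSeq sequence holds the seed GGCAGUG, the other two were miR-34a-5p at 0.27 (SE 0.21) and miR-449a-5p at 0.10 (SE 0.32). The more abundant miR-34c-5p, of the same family, was at 0.09 (SE 0.18). It is absent from this seed group, which leaves out miRNAs without a RefSeq sequence. For miR-101c, miR-34b-5p and miR-224-5p the interaction of genotype and training had edgeR unadjusted p of 0.0491, 0.0426 and 0.0305, with adjusted p of 1.0 each. They are 3 of 13 features with an unadjusted interaction p under 0.05 (1.99%), and 0 of 654 passed. The interaction was above 0 in 50.6% and below 0 in 49.4% of all features.

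miR-101c (chr9:3038680-3038698, minus strand, intergenic) stood at 37.7, 46.3 and 56.8 CPM in trained wild type and at 33.7, 61.1 and 116 CPM in trained kinase dead. Kinase dead replicates 6, 2 and 1 lay above every wild type library, at 116, 98.1 and 71.3 CPM, and 2 others lay below the wild type median. The log2 fold change was 0.51 (SE 0.25; edgeR unadjusted p = 0.0543) and 0.29 without kinase dead replicate 6. It was also 0.29 without the lymphocyte-rich libraries (edgeR unadjusted p = 0.315). Its longer relative miR-101a-3p was at -0.19 (SE 0.17), with means of 24360 ± 3522 CPM in trained wild type and 21310 ± 3183 CPM in trained kinase dead. The shorter sequence lies within the longer, and how the counting divided reads between them was not tested. The same 3 kinase dead libraries were also highest for miR-378d, at 1157, 1240 and 1006 CPM, against at most 900.5 CPM in wild type (log2 fold change 0.43, SE 0.26).

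**Figure D3:**
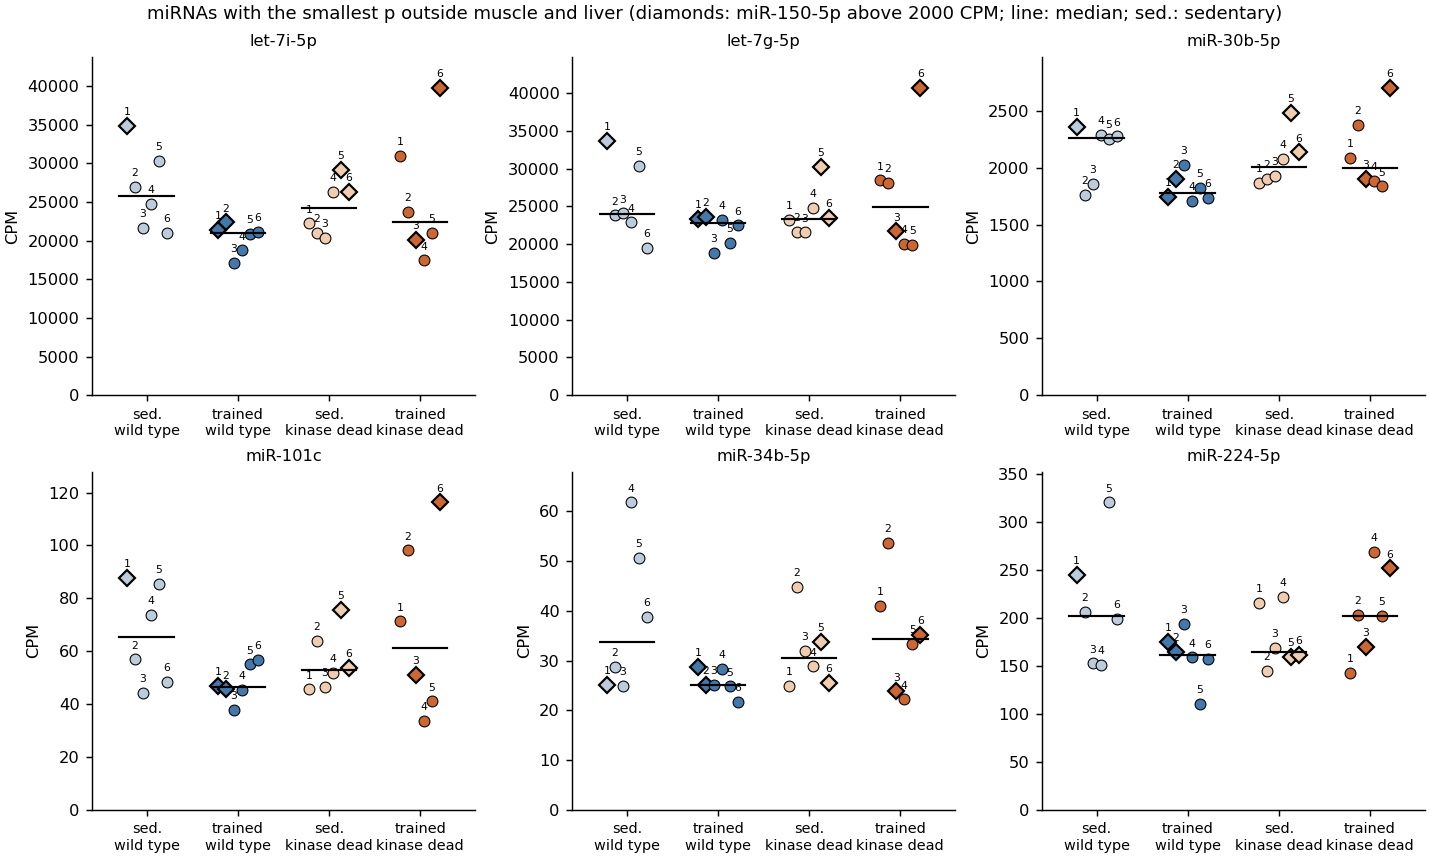
CPM in every library of the 4 groups for 6 miRNAs with small p outside the muscle and liver lists, with replicate numbers, diamonds for lymphocyte-rich libraries and a line at the median. For let-7i-5p, let-7g-5p and miR-101c kinase dead replicates 1, 2 and 6 lie above all trained wild type libraries, and the other 3 do not.

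miR-542-5p, of the X-linked miR-322 to miR-450 region, was the only feature whose groups did not overlap (1 of 654, 0.153%). At chrX:53049453-53049474 (minus strand, intergenic on that strand) it stood at 1.26, 1.31 and 2.0 CPM in trained wild type and at 0.788, 1.01 and 1.19 CPM in trained kinase dead. All of these levels are low, which limits their precision. Kinase dead replicates 2 and 6, at 0.926 and 0.788 CPM, lie at or below what 3 reads stand for there (1.39 and 0.788 CPM). The other libraries lie above it. The exact permutation p was 0.00216, the smallest that 6 against 6 can give (adjusted p = 0.0671 over the 31 named features). The named features were partly chosen by small p in these same libraries, so this adjustment does not cover the choice among 654. The edgeR fit gave a log2 fold change of -0.48 (SE 0.29, unadjusted p = 0.113). In sedentary mice it was at 0.22 (SE 0.30). Among other scarce miRNAs with a small p, miR-23b-5p was at 0.59 (SE 0.35), with all 6 kinase dead libraries above the wild type median of 1.53 CPM (exact permutation p = 0.0346, n = 6 each, adjusted p = 0.28). The neural miR-124a-3p was at 0.80 (SE 0.42) for locus 2 and 0.26 (SE 0.51, and 0.06 without wild type replicate 6 or 0.16 without kinase dead replicate 5) for the larger locus 3, both near 1 CPM in the mean (1.09 and 1.13 CPM).

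Both arms of miR-203, an epithelial miRNA, were lower in trained kinase dead fat and did not pass. miR-203-5p (chr12:112130889-112130910, plus strand, intergenic) stood at 160, 198 and 233 CPM in trained wild type and at 120, 156 and 187 CPM in trained kinase dead. All 6 kinase dead libraries lay below the wild type median, and 4 of them below every wild type library. The log2 fold change was -0.32 (SE 0.19; edgeR unadjusted p = 0.108) and the exact permutation p was 0.0368 (n = 6 each, adjusted p = 0.28). miR-203-3p, the main arm, stood at 2417, 2901 and 3301 CPM and at 1977, 2494 and 3467 CPM, with kinase dead replicate 1 the highest of all 12 and 5 of 6 kinase dead libraries below the wild type median. Its log2 fold change was -0.17 (SE 0.15; edgeR unadjusted p = 0.281), and -0.32 without kinase dead replicate 1, -0.26 without wild type replicate 1 and -0.11 without kinase dead replicate 6. In sedentary mice the arms were at 0.04 and 0.08, and the interaction had edgeR unadjusted p of 0.201 and 0.263.

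By the median, the miRNAs of fat cells themselves were near equality. The adipocyte-enriched list had 11 features higher and 10 lower with a median of 0.00, and miR-148a-3p, which promotes adipogenesis, stood at 25940, 32760 and 37180 CPM in trained wild type and at 22890, 32430 and 42490 CPM in trained kinase dead. Its log2 fold change was 0.04 with an interval of -0.27 to 0.34, so differences beyond 1.27-fold lay outside it. miR-378a-3p, encoded in the mitochondrial regulator gene Ppargc1b, was at -0.18 (SE 0.14), miR-193b-3p, of a brown fat cluster, at 0.08 (SE 0.18), and miR-196a-5p, a browning factor, at -0.14 (SE 0.19) for locus 1. The highest value of the list was that of miR-193a-3p, at 0.40 with a wide SE of 0.78. Without the lymphocyte-rich libraries miR-193a-3p was at 1.90 (SE 0.89; edgeR unadjusted p = 0.0471, adjusted p = 0.997). That fit keeps kinase dead replicate 2, which held 1050 CPM of miR-193a-3p against 38.3 to 413 CPM in the other 11 trained libraries. miRNAs that promote adipogenesis had a median of 0.01 over 27 features, those that restrain it 0.02 over 20, those that promote brown or beige adipocytes -0.00 over 34, those that restrain them -0.05 over 24, and those of insulin signalling and lipid handling -0.09 over 23. Among the restrainers of adipogenesis, miR-221-3p was at 0.20 (SE 0.13), miR-27b-3p at -0.08 (SE 0.11) and miR-130a-3p at 0.16 (SE 0.35).

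The most abundant miRNAs of the tissue were close between the groups. miR-143-3p, of smooth muscle and differentiating adipocytes, stood at 114700, 122200 and 154000 CPM in trained wild type and at 96100, 126100 and 170700 CPM in trained kinase dead, with a log2 fold change of 0.02 (interval -0.32 to 0.35). miR-21a-5p, within an exon of Vmp1 on chromosome 11 and widely expressed in stressed tissue, was at -0.11 (interval -0.42 to 0.20). The reads shared by miR-126b-5p and the endothelial miR-126a-3p on the opposite strand were at -0.17 (interval -0.56 to 0.22), miR-30a-5p at 0.07 (-0.27 to 0.42) and miR-99a-5p at -0.02 (-0.42 to 0.38). With single libraries left out miR-21a-5p ran from -0.22 to -0.05 and miR-126b-5p from -0.26 to -0.13. The signs of miR-143-3p, miR-148a-3p, miR-30a-5p and miR-99a-5p turned when single libraries were left out, and that of miR-143-3p also with upper-quartile scaling (-0.02).

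**Figure D4:**
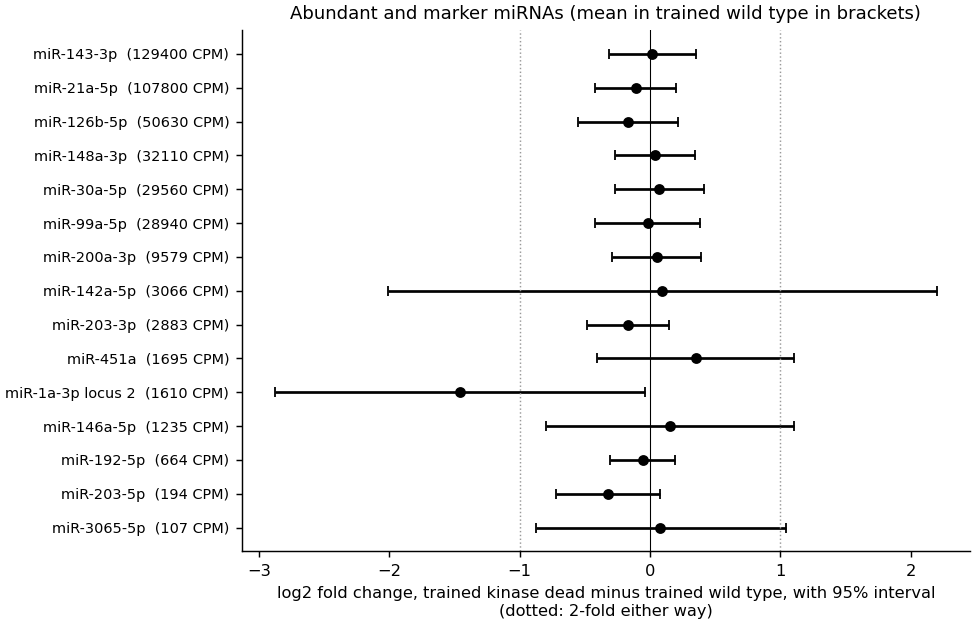
Log2 fold change, trained kinase dead minus trained wild type, with its 95% interval for the abundant miRNAs, the leading marker of each cell type and both arms of miR-203, with dotted lines at 2-fold. The intervals of the 6 most abundant lie within -0.56 to 0.42, while that of the lymphocyte miRNA miR-142a-5p runs from -2.01 to 2.20.

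Markers of the other cell types in the fat gave medians on either side of 0, with 0 features called in any of these lists. Of 8 features on the endothelial list 7 were lower (median -0.13), with miR-126a-3p at -0.17 (SE 0.19). Those of miR-126a and miR-126b are opposite-strand loci that share reads. The rest are arms of miR-501 (-0.22 and 0.10) and of miR-322 (-0.11 and -0.14), which is also counted in the miR-15 and miR-16 family. Epithelial features were lower in 8 of 13 (median -0.09), with miR-200a-3p, which keeps cells epithelial by repressing Zeb1, at 0.05 (SE 0.16). The medians were 0.07 for 4 smooth muscle features, 0.10 for 9 myeloid features, 0.08 for 17 nerve features and 0.09 for 12 lymphocyte features. miR-146a-5p, which dampens inflammatory signalling, was at 0.15 (SE 0.46), and miR-3065-5p, which shares its reads with the neural miR-338-3p, at 0.08 (SE 0.46). Families gave medians of -0.03 for the miR-15 and miR-16 family, 0.04 for that of miR-17 and miR-20, -0.02 for miR-29, -0.02 for the family of miR-99 and miR-10, 0.12 for the miR-183, miR-96 and miR-182 cluster and 0.03 for the 62 features of the imprinted Dlk1-Dio3 locus. The lists of inflammation (-0.03 over 14), stroma and fibrosis (0.05 over 20) and hypoxia (0.09 over the 2 arms of miR-210) were no further from 0. Without the lymphocyte-rich libraries 7 of 25 list medians had the other sign, and that of miR-29 moved most, to 0.25. There miR-29b-3p, at -0.17 (locus 1) and -0.14 (locus 2) in all libraries, was at 1.32 and 1.33 (edgeR unadjusted p = 0.0404 and 0.0384, adjusted p = 0.997 each). Its locus 2 held 1596 CPM in kinase dead replicate 2 and 1271 and 1211 CPM in the lymphocyte-rich wild type replicates 1 and 2, against 146 to 452 CPM in the other 9 libraries.

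**Figure D5:**
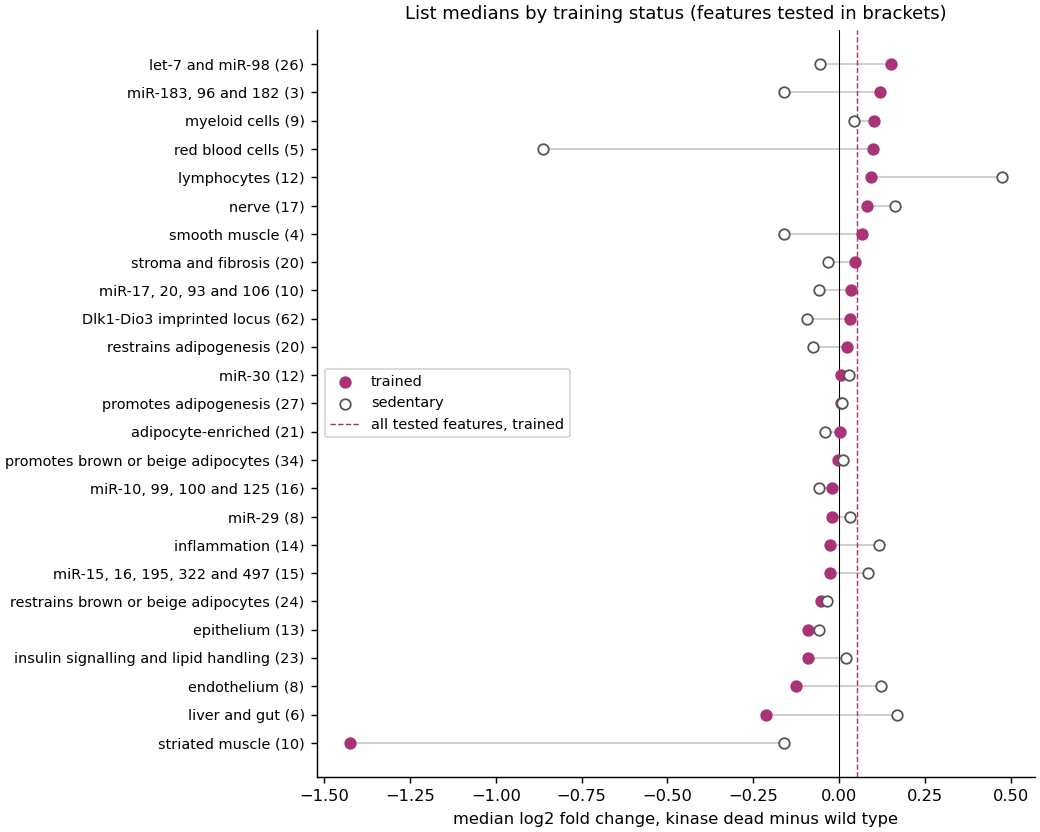
Median log2 fold change, kinase dead minus wild type, of each list with at least 3 tested features, in trained libraries (filled) and sedentary libraries (open), with the number of features in brackets. Striated muscle stands at -1.43 among trained and -0.16 among sedentary libraries, and red blood cells at 0.10 and -0.86.

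Of 5 red cell features 3 were higher in trained kinase dead fat and 2 were lower, with a median of 0.10, and none passed. The 3 of the cluster from Mir144 to Mir451a were higher, with a median of 0.35, and those of miR-486, at -0.04 and -0.003, were the others. miR-451a, the erythroid miRNA made without Dicer, stood at 904, 1525 and 3203 CPM in trained wild type and at 1383, 1839 and 3349 CPM in trained kinase dead (log2 fold change 0.35, SE 0.36). Its 95% interval reached up to 2.15-fold. The value was 0.13 without kinase dead replicate 5, 0.14 without wild type replicate 1, 0.18 without wild type replicate 3, 0.21 without wild type replicate 5 and 0.60 without wild type replicate 6. In sedentary mice all 5 features were lower in kinase dead, and red cell loci (miR-451a, miR-144-5p, miR-486-3p and the opposite-strand miR-3107-5p) were 4 of the 5 features with an unadjusted p under 0.05 there (0.765%). For miR-451a it was -0.91 (SE 0.37; edgeR unadjusted p = 0.0207). Its levels ran from 1733 to 7009 CPM in sedentary wild type (3049 ± 2119, SD, n = 6). In sedentary kinase dead they ran from 935 to 3009 CPM (1622 ± 720, SD, n = 6). Sedentary libraries were not left out in turn. The interaction for miR-451a was 1.26 (SE 0.52; edgeR unadjusted p = 0.0227, adjusted p = 1.0).

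Lymphocyte miRNAs showed how far 2 libraries a group can set a value. miR-142a-5p, made by all blood lineages, stood at 483, 624.9 and 10140 CPM in trained wild type and at 512, 724 and 10640 CPM in trained kinase dead, and only the 4 lymphocyte-rich libraries exceeded 845 CPM. Its log2 fold change was 0.09 (SE 1.02) and lay between -0.74 and 0.89 over the fits that each omit 1 library. The cluster on chromosome 2 from Mir669f to Mir297a-4 (chr2:10467229-10517164, plus strand), a large rodent array of near-identical miRNAs within Sfmbt2, had 55 of 66 features higher in trained kinase dead and a median of 0.29. Its 66 features hold only 25 distinct mature sequences. The summed level was 567 and 418 CPM in lymphocyte-rich wild type replicates 1 and 2, 536 and 705 CPM in lymphocyte-rich kinase dead replicates 3 and 6, and 141 to 174 CPM in the other 8 libraries, in which the groups overlapped. Without the lymphocyte-rich libraries 23 of its 38 tested features were higher and the median was 0.06. The proliferation cluster from Mir17 to Mir92-1 on chromosome 14 likewise stood at 6398 to 9864 CPM in the 4 lymphocyte-rich libraries and at 3820 to 5253 CPM in the other 8, and 9 of its 10 features were above 0 (median 0.12), but 5 of 10 without them.

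Strand choice was compared through the log2 ratio of 5p to 3p reads of the same hairpin, which does not depend on scaling between libraries. Of 225 hairpins with both arms tested, limma called 0 (0.0%), and at an unadjusted threshold of 0.05 also 0 (0.0%). By p, the first was miR-31, a restrainer of adipogenesis, at a difference of -0.42 (SE 0.21; limma unadjusted p = 0.0643, adjusted p = 0.998), from a log2 ratio of 4.69 ± 0.44 in trained wild type to 4.27 ± 0.33 in trained kinase dead (SD, n = 6 each). For miR-203 the ratio was -3.90 ± 0.15 and -4.04 ± 0.21, a difference of -0.14 (SE 0.14), and for let-7i it was 8.14 ± 0.40 and 8.37 ± 0.70.

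By the median spread over features, trained kinase dead libraries varied more among themselves than trained wild type libraries, but large deviations were not more frequent in them. Over the 381 features of at least 10 CPM the median SD of log2 CPM was 0.348 in trained kinase dead and 0.295 in trained wild type, and 242 features (63.5%) had the larger SD in kinase dead. The values were 0.322 and 0.361 in sedentary kinase dead and sedentary wild type, the other way round. Features more than 1 log2 unit from the other 5 libraries of their group numbered 13 to 48 in trained wild type libraries. In trained kinase dead libraries they numbered 10 to 38. The most, 48 and 39, were in the lymphocyte-rich wild type replicates 1 and 2. Of 228 features of at least 100 CPM, kinase dead replicate 6 held the highest value of the 12 trained libraries in 43, replicate 2 in 41 and replicate 1 in 29, against 6 to 22 in each of the other 9. The lowest value was in replicate 6 for 38, replicate 2 for 30 and replicate 1 for 22, again against 6 to 22. Kinase dead replicate 2, the library with the fewest reads, held 1050 CPM of miR-193a-3p, which is on the adipocyte-enriched list, against 38.3 to 413 CPM in the other 11 libraries. It held 53260 CPM of miR-22-3p against 10570 to 23950 CPM, and 1297 CPM of miR-15a-5p, which slows the cell cycle, against 168 to 774 CPM. miR-29b-3p, miR-181c-5p and miR-130a-3p were also highest there. Others were lowest there, such as miR-27a-3p at 2783 CPM against 4492 to 7421 CPM. miR-140-5p likewise held 139 CPM there against 254 to 427 CPM.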

How the data were processed

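Per the labels' protocols, TRIzol was used to extract RNA and a NEBNext kit to make the small RNA libraries. The submitters' processing notes list the tools CASAVA 1.8.2, Trim Galore, Bowtie2 and featureCounts and the build mm10. Further versions, and how strand, multiple mapping and overlapping loci were handled, were not given in the sources used here, and the last of these decides how copies and overlapping loci divide reads. The values the authors deposited are unnormalized read counts for each mature miRNA locus in each library.

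Of 2045 loci, 1670 were matched by coordinates to mature miRNAs of RefSeq (GRCm38.p6), 4 through another locus of the same miRNA, and 371 were named from their GENCODE vM21 hairpin. Overlaps with genes also come from GENCODE. edgeR 4.0.16 (R 4.3.3) fitted all 24 libraries as 4 groups with TMM factors after filterByExpr, which kept 654 features, and contrasts were tested by quasi-likelihood with Benjamini-Hochberg adjustment at 0.05. Levels are CPM scaled by TMM. Arm ratios used limma 3.58.1 with 0.5 reads added. Exact permutation tests used log2 CPM with a prior count of 2. Their adjustment runs over the named features only, not over all 654. The scripts were tested on simulated data.

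The text names the 12 features of smallest p at a mean of at least 10 CPM, the 4 below it, the 6 most abundant, both arms of miR-203, the most abundant feature of each marker list, and the members at or above 10 CPM of lists with a median of at least 0.3 in size. Features of the sequence, cluster and spread results were chosen after their values were seen. The comparison and the 27 lists were chosen with earlier results of these data known. Alternatives were DESeq2 1.42.0, limma-voom, other scalings and filters, summed copies, cell scores as covariates, and fits without single or lymphocyte-rich libraries. Replicate numbers follow accession order and pair nothing.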

Additional observations from a re-analysis of the deposited data

Results flagged for a closer look

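In groups of 6, a library was singled out where its gap to the nearest other exceeded what Dixon's test allows at 95%. Of 62 groups checked, 5 had such a library, and chance gives about 1 in 20. For miR-206-3p it was trained kinase dead replicate 4 at 49.9 CPM, and for miR-23b-5p trained wild type replicate 4 at 3.27 CPM. For miR-542-5p it was trained wild type replicate 1 at 2.0 CPM. For miR-146a-5p it was trained kinase dead replicate 6, one of the lymphocyte-rich libraries, at 3244 CPM. For miR-3065-5p, which shares reads with miR-338-3p, it was trained kinase dead replicate 2 at 291 CPM.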

How the results depend on the processing

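The count of called features between the trained genotypes was 0 in the main analysis and in all 26 alternatives, by edgeR, DESeq2 and limma-voom, and the counts for sedentary mice, for the interaction and for arm ratios were 0 in every alternative run. The count at an unadjusted p under 0.05 was 6 and ranged from 1 to 16 across them, apart from 55 of 1701 features without a filter on low counts. It was 1 with robust spread, 3 with copies summed, and 16 without the lymphocyte-rich libraries. Leaving out 1 library gave 11 without wild type replicate 1, 10 without kinase dead replicate 4, 3 without kinase dead replicate 2, 2 without kinase dead replicate 3 or 6, and 1 without kinase dead replicate 1 or wild type replicate 5 or 6. Counts without a filter rest on loci with few reads. Of 802 log2 fold changes of named features under alternatives, 52 had the other sign, 37 of them with 1 library left out. With the muscle score as a covariate, itself built from muscle miRNAs, miR-1a-3p locus 2 was at 0.10, miR-206-3p at 0.13, miR-133a-5p locus 1 at 0.26, miR-133b-3p at 0.16, miR-142a-5p at -0.59, miR-146a-5p at -0.25 and miR-99a-5p at 0.17. With the lymphocyte score miR-99a-5p was at 0.025 and miR-3065-5p at -0.11. With the red cell score miR-99a-5p was at 0.0033 and miR-142a-5p at -0.14. miR-143-3p was at -0.017 with upper-quartile factors and at -0.040 with limma-voom, which put miR-148a-3p at -0.0021. With the 12 trained libraries alone miR-99a-5p was at 0.0004. As each library was left out, values on both sides of 0 ran from -0.74 to 0.89 for miR-142a-5p, -0.075 to 0.062 for miR-143-3p, -0.30 to 0.43 for miR-146a-5p, -0.080 to 0.089 for miR-148a-3p, -0.074 to 0.12 for miR-200a-3p, -0.44 to 0.27 for miR-3065-5p, -0.086 to 0.10 for miR-30a-5p and -0.16 to 0.036 for miR-99a-5p. The cause of these turns was not tested. At a filter of 10 CPM, miR-133a-5p, miR-124a-3p, miR-23b-5p and miR-542-5p could not be fitted. No paired analysis was possible because the labels carry no replicate numbers and those used here follow accession order.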
